A study of Mus musculus with 6 samples.

Results

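The genes described here are those of the kinase switch that drives cells from G2 into mitosis. They are the A-type cyclins *Ccna1* and *Ccna2*, the B-type cyclins *Ccnb1* and *Ccnb2*, the F-box cyclin *Ccnf*, the kinase *Cdk1*, the activating phosphatases *Cdc25b* and *Cdc25c*, the inhibitory kinase *Wee1* and the polo-like kinase *Plk1*. They were chosen as a list of symbols, and all 10 were found among the 32493 Ensembl genes of the count table. RNA-seq had been performed on neural stem cells (NSCs) of E14.5 mouse embryos on a C57BL/6J background, grown in proliferation medium with EGF and bFGF. The cells were cultured for several generations first, and the paper describes cko and ctrl as littermates. The cko embryos were homozygous for a floxed miR-151 allele and carried Emx1-IRES-Cre, and the ctrl embryos, called wild type in the labels, were homozygous for the same floxed allele but lacked Cre. Emx1-IRES-Cre is active in the dorsal telencephalon, and the methods describe the cells as isolated from the cortex, by dissection of the lateral ventricles. No label says whether libraries of a genotype came from separate embryos, so that p-values measure the spread between libraries, which may be technical.

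CDK1 is inactive without a cyclin. Cyclin A2 partners it from S phase to early mitosis, and cyclins B1 and B2 partner it in mitosis, after which they are destroyed. WEE1 holds the assembled complex inactive by phosphorylating CDK1, CDC25 phosphatases remove that phosphate, and PLK1 favours entry by acting on both sides of this switch. Cyclin F binds no CDK and serves as the substrate receptor of an SCF ubiquitin ligase. In the embryonic cortex these genes are read in dividing progenitors, and their mRNAs are low in cells that have left the cycle.

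Many genes of this phase carry in their promoters CCAAT boxes, which bind NF-Y, and a cell cycle homology region (CHR), which binds the MuvB complexes with B-MYB, FOXM1 or the repressors of the DREAM complex. The RefSeq promoter table of GRCm38.p6, with 250 bases before and 50 after each start, held 7 of the 10 genes. *Ccna2*, *Cdc25c* and *Wee1* were not in it. The letters CCAAT, on either strand, were found in 7 of these 7 windows and in 37.4% of all 32851 windows. The CHR letters TTTGAA, on either strand, were found in 4 of the 7, *Ccnb2*, *Ccnf*, *Cdk1* and *Plk1*, and in 17.9% of all windows. Both motifs stood together in these 4 genes and in 6.95% of all windows. The palindrome TTTAAA, a CHR variant, was found in *Ccnb1* and *Plk1* and in 13.2% of all windows. No match overlapped another. In *Ccnb2*, 3 CCAAT boxes lay 33 bases apart from start to start, and in *Cdk1* and *Ccnb1* the nearest pair lay 32 bases apart.

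The stretches from position -150 to 40 relative to the start are shown for the 5 genes whose windows held a CHR or its variant. The windows of *Cdc25b* and *Ccna1* held a CCAAT box alone, and of these the stretch of *Cdc25b* is shown for contrast. Each reads 5′ to 3′ on the strand of the gene in GRCm38.p6, and capitals mark a CCAAT box, a CHR or its variant on either strand.
Ccnb1 (chr13:100786447-100786636, minus strand): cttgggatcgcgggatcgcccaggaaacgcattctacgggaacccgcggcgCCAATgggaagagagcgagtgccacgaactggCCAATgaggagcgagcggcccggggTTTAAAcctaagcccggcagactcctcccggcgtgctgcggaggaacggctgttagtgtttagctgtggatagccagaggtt
Ccnb2 (chr9:70421515-70421704, minus strand): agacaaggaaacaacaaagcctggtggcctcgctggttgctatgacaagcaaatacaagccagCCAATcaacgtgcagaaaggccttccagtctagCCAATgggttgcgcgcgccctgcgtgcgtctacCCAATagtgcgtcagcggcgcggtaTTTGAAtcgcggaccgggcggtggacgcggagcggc
Ccnf (chr17:24251370-24251559, minus strand): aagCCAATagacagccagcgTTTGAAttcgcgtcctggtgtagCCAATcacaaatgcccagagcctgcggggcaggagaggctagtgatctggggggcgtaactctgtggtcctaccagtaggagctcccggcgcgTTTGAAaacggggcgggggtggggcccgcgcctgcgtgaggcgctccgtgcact
Cdk1 (chr10:69352873-69353062, minus strand): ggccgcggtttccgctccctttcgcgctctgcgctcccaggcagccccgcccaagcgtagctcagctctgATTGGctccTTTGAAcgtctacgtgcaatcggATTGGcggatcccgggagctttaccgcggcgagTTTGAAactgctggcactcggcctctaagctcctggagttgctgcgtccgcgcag
Plk1 (chr7:122159285-122159474, plus strand): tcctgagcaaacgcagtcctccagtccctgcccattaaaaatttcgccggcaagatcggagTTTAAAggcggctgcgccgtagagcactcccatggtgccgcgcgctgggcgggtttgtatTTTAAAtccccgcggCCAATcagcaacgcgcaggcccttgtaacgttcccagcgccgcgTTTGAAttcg
Cdc25b (chr2:131186798-131186987, plus strand): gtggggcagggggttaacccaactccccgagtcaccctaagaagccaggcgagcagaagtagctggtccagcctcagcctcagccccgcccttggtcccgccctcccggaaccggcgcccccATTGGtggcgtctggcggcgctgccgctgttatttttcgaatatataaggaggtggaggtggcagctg

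**Figure D1:**
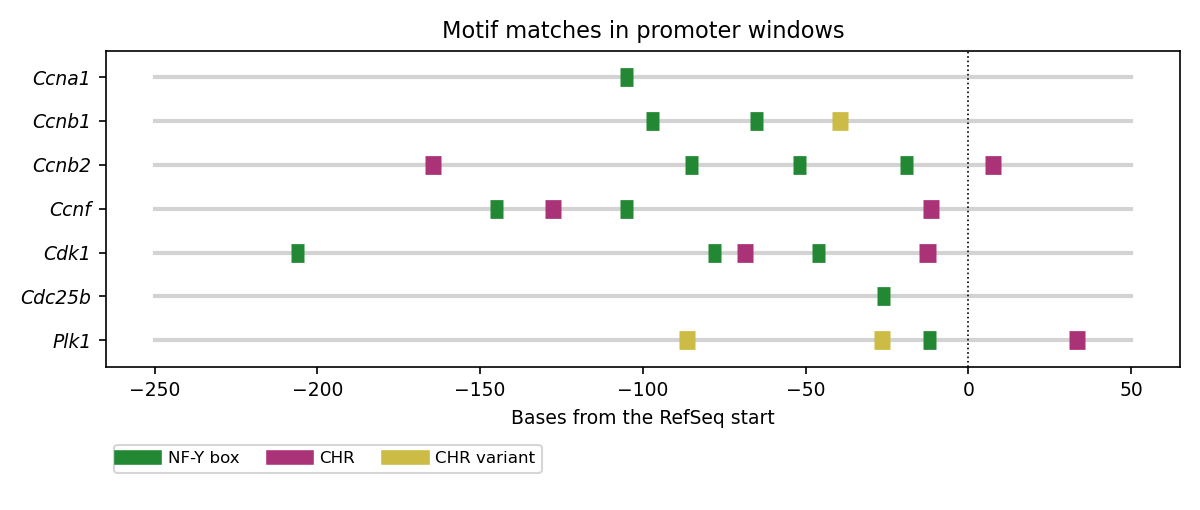
Positions of the motif matches in the promoter windows of 7 genes, in bases from the RefSeq start (dotted line). Green bars are CCAAT (NF-Y) boxes, purple bars TTTGAA (CHR) and yellow bars TTTAAA; the CHR nearest to the start began at position -15 in *Cdk1*, -14 in *Ccnf*, 5 in *Ccnb2* and 31 in *Plk1*.

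Counts were available in 6 columns, but the column of ctrl replicate 2 equalled the mean of ctrl 1 and ctrl 3, rounded up, in 32493 of 32493 genes, so 2 ctrl and 3 cko libraries were compared. Their totals ran from 17883796 to 23335736 counts, which put the smallest level readable, 3 counts, at 0.129 to 0.168 CPM (counts scaled to library size), a limit for counting error only. No row of the table was matched to miR-151, so the genotype labels were not checked against its level. The NSC markers were present in both genotypes, with summed levels of 7693 to 8749 normalized CPM in ctrl and 9140 to 9865 in cko, 4 of 10 higher and *Slc1a3* lower at an adjusted p under 0.05. Markers of other cells moved with genotype. Of 6 astrocyte markers 3 were lower (summed 1339 to 2443 normalized CPM in ctrl, 608 to 1136 in cko). Of 8 oligodendrocyte lineage markers 4 were lower and 2 higher (2755 to 3377 against 3224 to 3508). Of 7 tested neuronal markers 2 were higher and 1 lower (1133 to 1262 against 1274 to 1305). Of 3 tested intermediate progenitor markers 1 was higher (123 to 134 against 189 to 200.5). It was *Btg2*, which made up most of these sums (124 and 115 in ctrl, 176, 189 and 187 in cko). *Neurog2* and *Neurod1* did not pass, and *Eomes*, at 0.0874 to 0.184 normalized CPM, was below the filter on low counts. Microglial markers summed to at most 0.907 normalized CPM, with *Cx3cr1* and *Tmem119* at 0 counts, endothelial markers to at most 6.71, with *Cdh5* at 0 counts, and meningeal or mesenchymal markers to at most 6.30. The part of these shifts in cell makeup in the results that follow was not tested, and in such bulk RNA a larger share of cells in G2 or mitosis cannot be told apart from more mRNA per cell.

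All 10 genes of the mitotic switch were higher in cko than in ctrl NSCs. In edgeR 10 of 10 were called higher at an adjusted p under 0.05, against 7.86% of the 16710 genes tested that were called higher. At the threshold of the study, a log2 fold change over 0.9 with an unadjusted p under 0.01, 8 of 10 were called, against 2.39% of tested genes, and *Cdc25b* and *Wee1* fell short of the fold change. The genotypes did not overlap in 10 of 10 genes, with each cko library above both ctrl libraries, which held for 25.4% of tested genes. The median log2 fold change was 1.22 over the 10 genes and -0.0026 over all tested genes. Without cko 2, or without cko 3, 6 of 10 genes were called at an adjusted p under 0.05, and *Ccna1*, *Ccnf*, *Cdc25b* and *Wee1* were not.

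**Figure D2:**
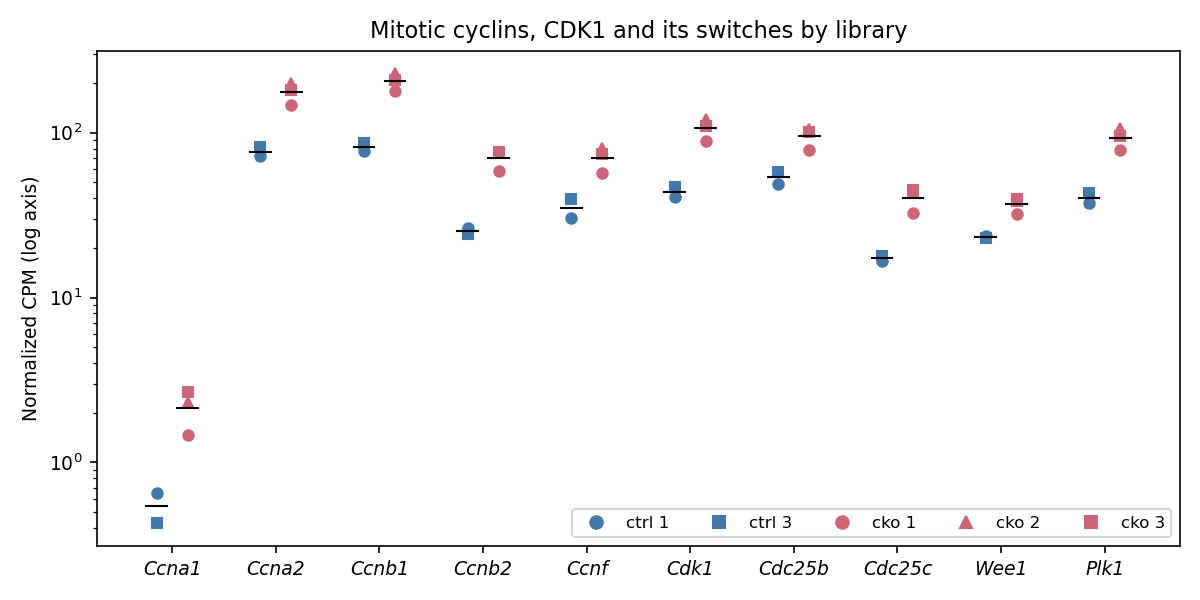
Normalized CPM (log axis) of each gene in each library. Points are libraries, blue for ctrl and red for cko, with the shape giving the replicate number and short lines the group means; in each gene the 3 cko libraries sit above the 2 ctrl libraries, and cko 1 is the lowest cko library.

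*Cdk1* (ENSMUSG00000019942, chromosome 10, 69335146 to 69352938, minus strand, GRCm38) encodes the catalytic subunit on which the other proteins act. It was measured at 40.8 and 46.7 normalized CPM in ctrl 1 and ctrl 3 and at 89.6, 121 and 110 in cko 1, 2 and 3. The lowest cko library was thus 0.94 above the highest ctrl library on the log2 scale. The mean was 43.8 ± 4.17 normalized CPM in ctrl (SD, n = 2) and 107 ± 15.8 in cko (SD, n = 3). *Cdk1* was thus higher in cko by 1.29 on the log2 scale (standard error, SE, 0.14, 95% confidence interval 0.96 to 1.61, edgeR adjusted p = 0.00233).

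*Ccnb1* (ENSMUSG00000041431, chromosome 13, 100778650 to 100786570, minus strand) encodes the main mitotic partner of CDK1. It stood at 77.4 and 86.7 normalized CPM in ctrl 1 and ctrl 3 and at 180, 230 and 210 in cko 1, 2 and 3, with every cko library at least 1.05 above both ctrl libraries on the log2 scale. Its log2 fold change was 1.33 (SE 0.12, 95% confidence interval 1.05 to 1.61, edgeR adjusted p = 0.00145). *Ccnb2* (ENSMUSG00000032218, chromosome 9, 70407692 to 70421547, minus strand) encodes the B-type cyclin found at the Golgi. Its levels were 26.5 and 24.2 normalized CPM in ctrl 1 and ctrl 3, and it stood at 58.4, 76.2 and 76.3 in cko 1, 2 and 3. The groups did not overlap, and its log2 fold change was 1.47 (SE 0.14, 95% confidence interval 1.15 to 1.80, edgeR adjusted p = 0.00171).

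*Ccnb1* and *Ccnb2* each have a processed pseudogene that was counted as well, and reads of such near-identical copies may be split between them. *Ccnb1-ps* held 0.672 to 1.12% of the level of *Ccnb1* in the 5 libraries. *Ccnb2-ps* held 35.3 and 35.0% of the level of *Ccnb2* in ctrl 1 and ctrl 3 and 23.5, 18.5 and 17.8% in cko 1, 2 and 3, and it rose itself by 0.63 on the log2 scale (edgeR adjusted p = 0.0211). With the copies summed, the log2 fold change of *Ccnb2* was 1.29 and that of *Ccnb1* 1.33, an alternative added after the copies had been seen.

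*Ccna2* (ENSMUSG00000027715, chromosome 3, 36564865 to 36572150, minus strand) encodes the A-type cyclin of somatic cells. Its levels were 72.2 and 81.6 normalized CPM in ctrl 1 and ctrl 3 and 147, 201 and 182 in cko 1, 2 and 3, and the groups did not overlap. The log2 fold change was 1.20 (SE 0.14, edgeR adjusted p = 0.00278). Its exons share 510 bases with *Exosc9* on the opposite strand, which had 27.9 to 34.5 normalized CPM over the 5 libraries and an adjusted p of 0.219 in edgeR. *Ccna1* (ENSMUSG00000027793, chromosome 3, 55045469 to 55055501, minus strand), best known from the male germ line, was close to the limit of the depth. It had 15 and 8 counts in ctrl 1 and ctrl 3 and 26, 54 and 58 counts in cko 1, 2 and 3, or 0.655 and 0.427 against 1.45, 2.31 and 2.67 normalized CPM. Its log2 fold change of 1.97 was the largest of the 10 and also the least precise (SE 0.42, 95% confidence interval 0.99 to 2.94, edgeR adjusted p = 0.0208). The adjusted p was 0.0866 without cko 2 and 0.0900 without cko 3.

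*Ccnf* (ENSMUSG00000072082, chromosome 17, 24222198 to 24251484, minus strand) was measured at 30.4 and 39.7 normalized CPM in ctrl 1 and ctrl 3 and at 56.8, 80.8 and 74.1 in cko 1, 2 and 3. Its 2 ctrl libraries differed by 0.39 on the log2 scale, more than those of any other gene of the 10 except *Ccna1*. The log2 fold change was 1.01 (SE 0.18, edgeR adjusted p = 0.0106), and the adjusted p was 0.0527 without cko 2 and 0.0579 without cko 3. Of the 6 SCF cyclin F substrates listed, the mRNAs of 4 rose, and the median log2 fold change was 0.90. These were the spindle gene *Nusap1* (log2 fold change 1.23), the ribonucleotide reductase subunit *Rrm2* (1.11), the histone mRNA binder *Slbp* (0.50) and the exonuclease *Exo1* (1.02), while *Ccp110* (0.20, edgeR adjusted p = 0.189) and *Cdc6* (0.78, adjusted p = 0.132) did not pass.

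*Plk1* (ENSMUSG00000030867, chromosome 7, 122159439 to 122169873, plus strand) was measured at 37.4 and 43.0 normalized CPM in ctrl 1 and ctrl 3 and at 78.2, 106 and 95.8 in cko 1, 2 and 3. The groups were separate by 0.86 on the log2 scale, and the log2 fold change was 1.22 (SE 0.14, edgeR adjusted p = 0.00278). Of the other polo-like kinases (median 0.43 over 3 tested), *Plk4*, which starts centriole duplication, rose (0.85, edgeR adjusted p = 0.0116), *Plk2* (0.31) and *Plk3* (0.43) did not pass the test, and *Plk5* was below the filter on low counts.

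Both phosphatases on the activating side were higher in cko. *Cdc25c* (ENSMUSG00000044201, chromosome 18, 34732993 to 34751533, minus strand), a target of PLK1, was low in ctrl per kilobase of exon, above *Ccna1* alone. It stood at 16.7 and 17.9 normalized CPM in ctrl 1 and ctrl 3 and at 32.6, 43.5 and 45.2 in cko 1, 2 and 3, without overlap. The log2 fold change was 1.23 (SE 0.16, edgeR adjusted p = 0.00396). *Cdc25b* (ENSMUSG00000027330, chromosome 2, 131186949 to 131198497, plus strand), which acts first in G2 and at the centrosomes, had a higher level per kilobase. Its values were 49.1 and 58.1 normalized CPM in ctrl 1 and ctrl 3 and 78.8, 106 and 101 in cko 1, 2 and 3. The libraries of the genotypes were 0.44 apart at their closest on the log2 scale, and the log2 fold change was 0.83 (SE 0.14, 95% confidence interval 0.50 to 1.17, edgeR adjusted p = 0.0103). Without cko 2 or cko 3 its adjusted p was 0.0552 and 0.0586. *Cdc25b* shares 92 exon bases with *Spef1* and *Cdc25c* 623 with *Gm3550*, both on the opposite strand, and the counting is not stated to use strand. *Ccna1* and *Plk1* overlap antisense genes too, with 0 counts and at most 17 counts in a library. *Spef1* had 21.4 to 26.8 normalized CPM and *Gm3550* at most 1.46.

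On the inhibitory side, *Wee1* (ENSMUSG00000031016, chromosome 7, 110122046 to 110143286, plus strand) had the smallest change of the 10. It was measured at 23.5 and 23.1 normalized CPM in ctrl 1 and ctrl 3 and at 32.1, 38.5 and 39.7 in cko 1, 2 and 3. The ctrl libraries were nearly equal, and all 3 cko libraries lay above them. The log2 fold change was 0.66 (SE 0.12, 95% confidence interval 0.38 to 0.93, edgeR adjusted p = 0.0117), with an adjusted p of 0.0697 without cko 2 and 0.0691 without cko 3. The second inhibitory kinase of CDK1, *Pkmyt1*, which sits on membranes, rose by 0.92 on the log2 scale (edgeR adjusted p = 0.0265).

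**Figure D3:**
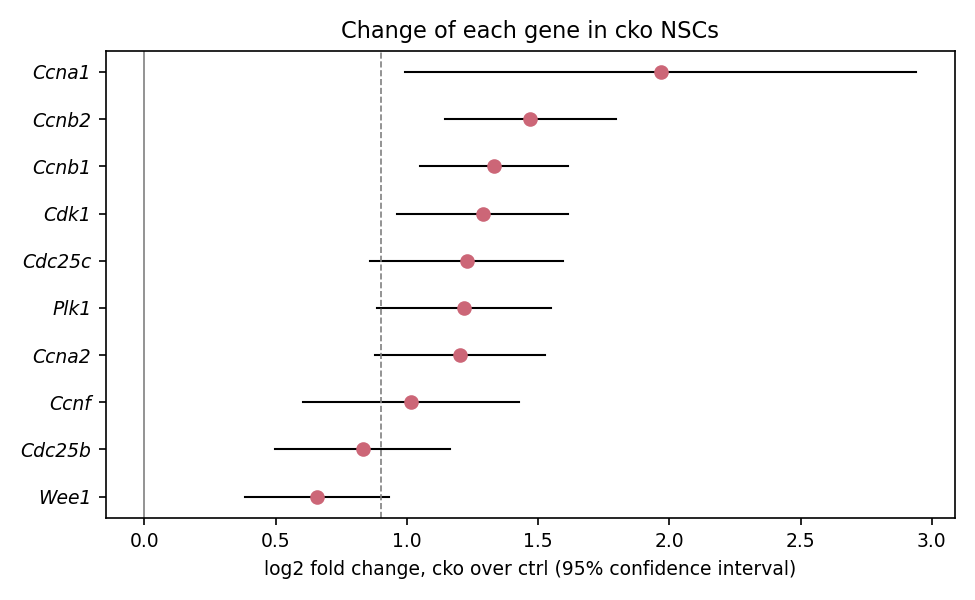
Log2 fold change of each gene in cko over ctrl NSCs, with 95% confidence intervals derived from the edgeR F statistic. The solid line marks 0 and the dashed line the fold change threshold of the study, 0.9; all intervals lie above 0, and the points of *Cdc25b* (0.83) and *Wee1* (0.66) lie below the dashed line.

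Since both genes of a ratio come from the same library, ratios do not depend on library scaling, and 8 of them were set up to compare the balance of the switch. The ratio of *Wee1* to *Cdk1* counts was 0.577 and 0.495 in ctrl 1 and ctrl 3 and 0.359, 0.319 and 0.361 in cko 1, 2 and 3. It was lower in each cko library than in either ctrl library, with a mean difference of -0.63 on the log2 scale. For *Cdc25b* to *Cdk1* the ratio was 1.20 and 1.24 in ctrl and 0.880, 0.875 and 0.918 in cko, a difference of -0.46, again without overlap. The ratio of the inhibitor to this activator, *Wee1* to *Cdc25b*, was 0.480 and 0.398 in ctrl and 0.408, 0.365 and 0.393 in cko, with a difference of -0.17 and overlapping genotypes.

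The ratios of *Plk1*, *Ccna2* and *Ccnb1* to *Cdk1* varied less. *Plk1* to *Cdk1* was 0.916 and 0.920 in ctrl and 0.873, 0.879 and 0.871 in cko, so that the libraries of a genotype differed by less than the genotypes did, but the difference itself was -0.07 on the log2 scale. *Ccna2* to *Cdk1* was 1.77 and 1.75 in ctrl and 1.64, 1.66 and 1.65 in cko, a difference of -0.09. *Ccnb1* to *Cdk1* was 1.895 and 1.855 in ctrl and 2.004, 1.901 and 1.905 in cko, a difference of 0.047 on the log2 scale. The genotypes did not overlap in this ratio, but by a narrow margin between ctrl 1 and cko 2. *Cdc25c* to *Cdk1* (difference -0.07) and *Ccnb2* to *Ccnb1* (0.13) overlapped. The latter was not computed with the pseudogene copies summed, where the log2 fold change was 1.29 for *Ccnb2* and 1.33 for *Ccnb1*. In the exact two-sided permutation test over 2 ctrl and 3 cko libraries, whose smallest possible p is 0.1, *Wee1*, *Cdc25b*, *Plk1* and *Ccna2* to *Cdk1* each reached p = 0.1, and the adjusted p over the 8 ratios was 0.2. This exact test therefore cannot reach 0.05 with these libraries.

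**Figure D4:**
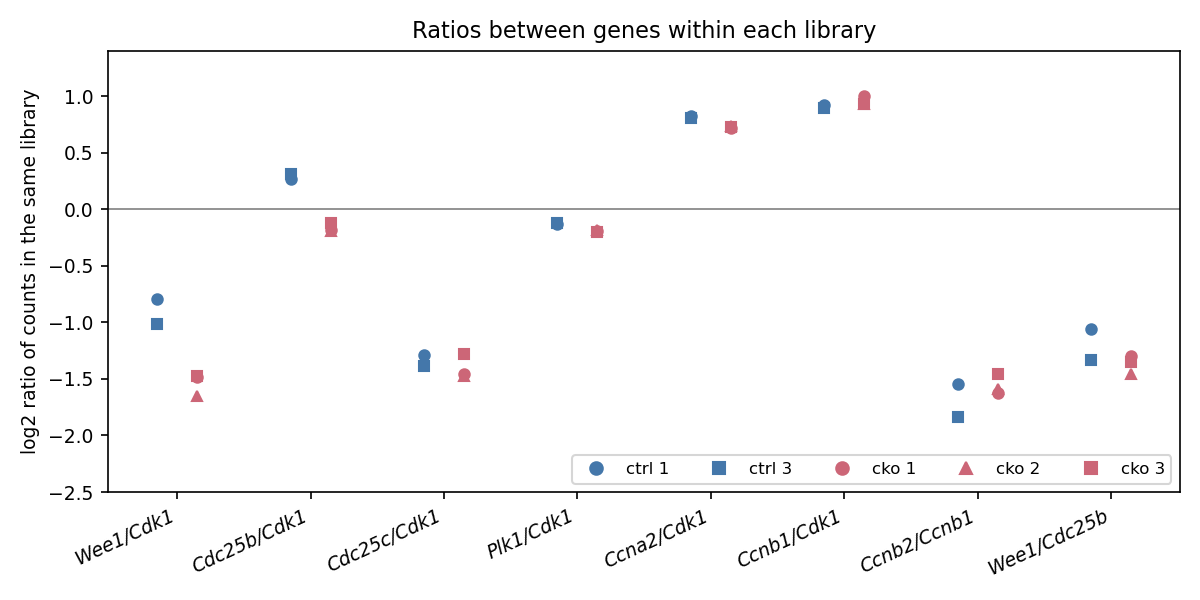
Log2 ratio of counts of the named gene pairs within each library, blue for ctrl and red for cko, with the shape giving the replicate number. *Wee1* and *Cdc25b* relative to *Cdk1* lie lower in the 3 cko libraries (differences of -0.63 and -0.46), whereas *Plk1*, *Ccna2* and *Ccnb1* relative to *Cdk1* lie within 0.09 of the ctrl mean on average.

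The libraries of a genotype were ranked in a shared way. Of the cko libraries, cko 1 was the lowest in 10 of 10 genes, against 39.4% of all tested genes. The highest was cko 2 in 6 genes and cko 3 in *Ccna1*, *Ccnb2*, *Cdc25c* and *Wee1*. The distance from cko 1 to cko 2 on the log2 scale ranged from 0.26 in *Wee1* to 0.67 in *Ccna1*. Of the ctrl libraries, ctrl 1 was above ctrl 3 in 3 of 10 genes, *Ccna1*, *Ccnb2* and *Wee1*, against 50.6% of all tested genes, and in 6 of 10 genes the ctrl libraries differed by less than 0.2.

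To compare levels between genes, normalized CPM was divided by the length of the merged exons in kilobases. In ctrl NSCs *Ccnb1* (19.5 ± 1.56, SD, n = 2), *Ccna2* (18.8 ± 1.63), *Plk1* (18.3 ± 1.81) and *Ccnb2* (16.6 ± 1.06) led in CPM per kilobase, and neighbours in this order differed by no more than the larger of their SDs. *Cdc25b* followed at 14.4 ± 1.71, then *Cdk1* at 8.88 ± 0.845 and *Wee1* at 6.82 ± 0.0911, which were separate from each other. *Ccnf* (4.49 ± 0.847) and *Cdc25c* (3.52 ± 0.165) were lower, and *Ccna1* was last at 0.295 ± 0.0880. In cko NSCs (n = 3) *Ccnb1* (48.9 ± 5.97), *Ccnb2* (45.9 ± 6.75), *Ccna2* (43.2 ± 6.63) and *Plk1* (42.5 ± 6.43) again led, within their spread. With the longest transcript as the length, *Ccnb1* stood at 33.0 and *Ccna2* at 25.9 CPM per kilobase in ctrl, *Cdc25b* passed *Ccnb2* and *Ccnf* passed *Wee1*, so that the order below *Plk1* in ctrl depends on the length used. It depends on the pseudogene too. With the copies summed and the merged exons as the length, *Ccnb2* stood at 22.4 ± 1.46 CPM per kilobase in ctrl and 54.9 ± 6.80 in cko, above *Ccnb1* at 19.6 ± 1.57 and 49.4 ± 5.92, whereas with the longest transcript *Ccnb1* remained above *Ccnb2*.

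Of the summed level of the A- and B-type cyclins per kilobase, *Ccnb1* made up 34.2 and 36.3% in ctrl 1 and ctrl 3 and 36.2, 35.2 and 34.2% in cko 1, 2 and 3. *Ccna2* made up 32.9 and 35.3% in ctrl and 30.7, 31.8 and 30.6% in cko. *Ccnb2* made up 32.2 and 28.0% in ctrl and 32.4, 32.2 and 34.2% in cko. *Ccna1* held under 1% in each library. Of the 3 main cyclins, *Ccna2* alone had shares without overlap between genotypes, but this did not hold with the pseudogene copies summed, where its share was 29.5 and 32.1% in ctrl and 28.4, 29.9 and 28.7% in cko. With the longest transcript as the length the share of *Ccnb2* was 20.2 to 25.3% over the 5 libraries and that of *Ccnb1* 42.5 to 44.9%.

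The genes with the pattern most like that of *Cdk1* were sought among 10171 other genes with a mean of at least 10 normalized CPM, by the root-mean-square difference of centred log2 CPM over the 5 libraries. The closest were the spindle protein gene *Ckap2l* (0.025), *Fanci* (0.031), of the Fanconi repair pathway, and *Pimreg* (0.033), against a median of 0.64 over these genes. With the described genes ranked in the same way, *Plk1* was 5th (0.035), *Ccnb1* 6th (0.037), *Ccna2* 9th (0.043) and *Cdc25c* 36th, while *Ccnb2* was 81st, *Ccnf* 95th, *Cdc25b* 210th and *Wee1* 402nd. This likeness over 2 ctrl and 3 cko libraries is a description only.

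Around CDK1, 86 further genes were listed in 9 groups by function, of which 83 were tested, 34 rose and 1 fell at an adjusted p under 0.05 in edgeR (background 7.86% higher and 8.57% lower). Without cko 2 or without cko 3 the count called was 13 and 14, against 35. Among 10 tested partners, activators and inhibitors of CDK1, with a median log2 fold change of 0.46, 5 rose. These were the kinase *Aurka*, which activates PLK1 (log2 fold change 1.29), its cofactor *Bora* (0.66), the CDK-binding subunits *Cks1b* (0.76) and *Cks2* (1.15), and *Pkmyt1*. None of the subunits of the CDK-activating kinase passed the test, with *Cdk7* at -0.03, *Ccnh* at 0.14 and *Mnat1* at 0.23, and neither *Cdk2* (0.13) nor *Cdc25a* (0.26) passed. *Ccnb3* was below the filter.

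The phosphatase PP2A-B55 removes CDK1 phosphorylations, and the Greatwall branch holds it back. Of 11 listed genes of Greatwall and PP2A-B55, 4 rose (median 0.30). They were led by the Greatwall kinase *Mastl* (0.97, edgeR adjusted p = 0.00739), its substrate *Ensa* (0.34) and the phosphatase subunit *Ppp2ca* (0.31). Of 15 genes of cyclin destruction, a list that also holds its inhibitors, 8 rose (median 0.32). Among them were the APC/C coactivator *Cdc20* at 1.26 and the E2 enzyme *Ube2c* at 1.28. The checkpoint gene *Mad2l1*, which acts against destruction, was at 1.04. Of the 6 core APC/C subunits listed, *Cdc27* rose (0.29, edgeR adjusted p = 0.0397), while *Cdc23* (0.25, adjusted p = 0.0535), *Anapc11* (0.26), *Anapc10* (0.21), *Cdc16* (0.09) and *Anapc2* (0.09) did not pass. Of 13 tested genes of the promoter-binding complexes 7 rose (median 0.30), with *Foxm1* at 1.08, *Nfyc* at 0.57 and *Mybl2*, which encodes B-MYB, at 1.08. The G2 checkpoint list (median 0.12) had 2 of 11 genes higher, *Gadd45g* (0.61) and *Clspn* (1.15), and its kinase *Atr* was lower (-0.47, edgeR adjusted p = 0.0118). *Cdkn1a*, which encodes the CDK inhibitor p21, stood at -0.95 and did not pass (edgeR adjusted p = 0.121). Its level was 403 normalized CPM in ctrl 3 and 117 to 157 in the other libraries.

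The 7 genes of WEE1 turnover had a median log2 fold change of -0.01, and 1 was called, the ligase subunit *Rbx1* (0.37). The G1 cyclins and their kinases had 2 of 7 genes called, *Cdk6* (1.33) and *Cdk4* (0.65), and a median of 0.18. None of its 5 cyclins passed the test, with log2 fold changes from -0.38 (*Ccnd2*) to 0.44 (*Ccne2*), whereas the 5 mitotic and S-phase cyclins described here had 1.01 to 1.97. The difference between these lists was not tested. For *Ccnd1*, *Ccnd2* and *Ccne1* the ctrl libraries lay far apart. Their levels were 304, 516 and 8.78 normalized CPM in ctrl 1 and 658, 882 and 15.6 in ctrl 3. In cko they were 347 to 507, 525 to 559 and 10.4 to 16.9, so that their fold changes depend on ctrl 3.

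**Figure D5:**
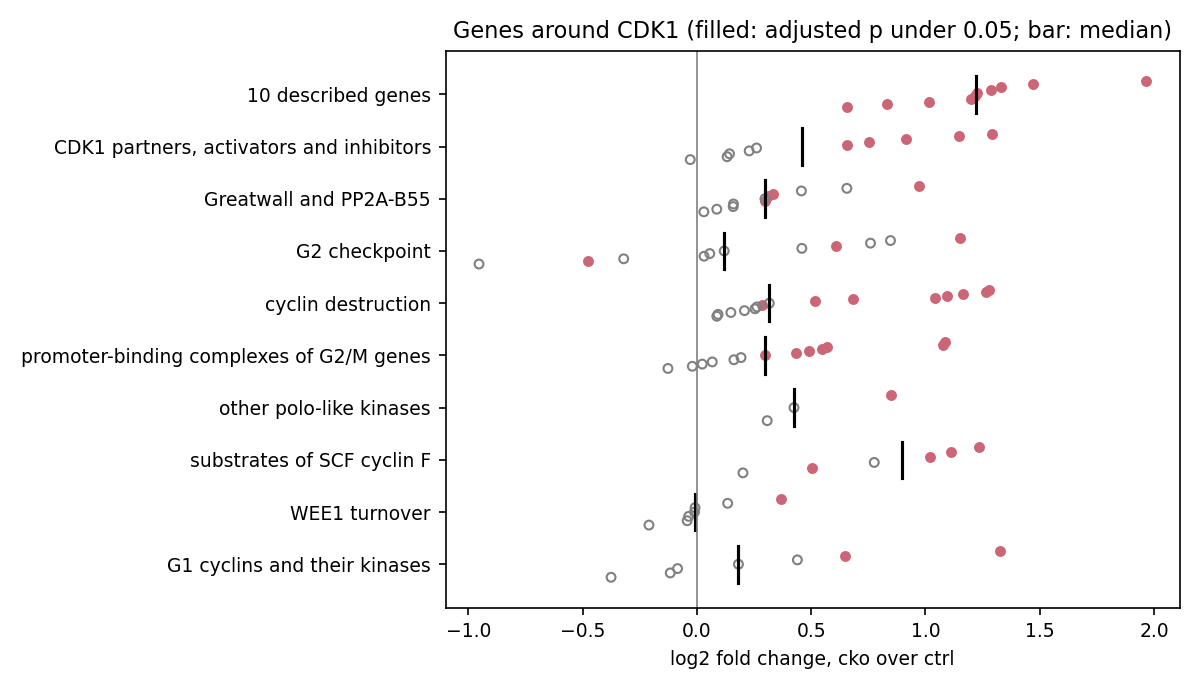
Log2 fold change in cko over ctrl NSCs of the 10 described genes and of the 9 lists around CDK1. Each point is a tested gene, filled where the adjusted p was under 0.05 in edgeR, and black bars are list medians, from 1.22 for the 10 described genes to -0.01 for the genes of WEE1 turnover.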

How the data were processed

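Raw counts per Ensembl gene, without normalization, were deposited by the authors, whose methods give quality filtering and alignment by HISAT2 to mm10. The submitters' processing notes name GRCm39 instead, the labels name a column kit for RNA where the methods name TRIzol, and the counting tool, annotation and use of strand are not given in the sources used here. Symbols and positions were taken from GENCODE M21 (GRCm38), which held 31829 of the 32493 IDs, and promoters from RefSeq. The genes described, the lists and the tests were chosen with earlier results of these data known.

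The counts of 2 ctrl and 3 cko libraries were filtered on low counts (16710 genes left), scaled with TMM factors and compared with the quasi-likelihood test of edgeR 4.0.16 in R 4.3.3, with Benjamini-Hochberg adjustment over all tested genes. The steps were tested on simulated data. CPM are normalized by TMM, and SD is over libraries. The SE was the absolute log2 fold change divided by the square root of the edgeR F statistic. The 95% confidence intervals used this SE and a t quantile. Log2 ratios used a prior of 0.5 counts. All 10 genes were named, and from each list up to 3 called genes with the smallest p and any called against the majority. Named beyond this rule, after their values were seen, were *Bora*, *Pkmyt1*, *Exo1*, *Cdc27* and the uncalled genes. Alternatives were DESeq2 1.42.0, other normalizations and filters, leaving out each library, a replicate block, all 6 columns, and summed pseudogenes. Figures were drawn with matplotlib 3.10.9.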

Additional observations from a re-analysis of the deposited data

How the results depend on the processing

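With 1 library left out at a time, the number of the 10 genes called at an adjusted p under 0.05 ranged from 6 (without cko 2 or without cko 3) to 10, and the number of genes of the 9 lists called ranged from 13 to 42, against 35. The number called at the fold change and p of the study ranged from 7 to 9, against 8, and the median log2 fold change from 1.13 to 1.34, against 1.22. Fits without ctrl 1 or without ctrl 3, the latter with the count of 42, hold a single ctrl library, which is assumed to vary like the cko libraries. Without cko 1, the lowest cko library in each of the 10 genes, all 10 and 28 list genes were called. Each of these fits holds 1 library fewer, and the cause of the losses was not tested. The other alternatives, DESeq2, 2 other normalizations, omission of the filter, a minimum of 10 counts per library, all 6 columns in edgeR or DESeq2 and the summed pseudogene copies, moved none of these counts by over 1.5 times, and no gene of the 10 changed direction in any of them. Over all tested genes, 1314 were called higher and 1432 lower, against 2865 and 2794 with all 6 columns in edgeR, 2564 and 2520 with all 6 in DESeq2, and 2237 lower without the filter. With a library left out, 317 to 1812 were called higher and 416 to 2062 lower, fewest without cko 2. Under the minimum of 10 counts *Ccna1* was not tested and 9 genes were called.

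The paper describes cko and ctrl as littermates, but no label gives the litter of a library, so litters were not paired in the main fit. Libraries with the same replicate number share only that number in the labels, and only numbers 1 and 3 occur in both genotypes. Their deviations from the group means correlated across genes with Pearson's r of 0.143 and 0.0507. With the replicate block 10 of 10 genes and 33 list genes were called, and the median log2 fold change was 1.13. Number 2 occurs in cko alone, so cko 2 does not inform the genotype difference in the blocked fit. That difference rests on ctrl 1, ctrl 3, cko 1 and cko 3, for which the fit without a block called 6 of 10 genes. The number of the 8 ratios without overlap between genotypes was 5, again 5 with a prior of 2 counts, and 5 to 6 with a library left out. Without a ctrl library, 1 ctrl value is set against 3 cko values, which makes a lack of overlap easier to meet. Most of the 8 ratios share *Cdk1* as the denominator and so are not independent. The share without overlap over other gene pairs was not computed. Values of *Ccna1* are limited by its depth of at most 58 counts.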
